A study of Mus musculus with 6 samples.

Results

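The glycolysis and lactate genes examined here are 31 mouse genes for glucose uptake, the glycolytic enzymes, lactate production and export, control of pyruvate dehydrogenase and the response to low oxygen. For each gene the probe set with the highest mean log2 intensity over the arrays was taken, among probe sets annotated to that symbol alone. Of the 31 genes, 28 had such a probe set, among 18193 genes named on the array outside its controls. Gapdh was named only through the array's control probe sets, so it is described and not tested, which makes 29 genes with values. Gpi1 and Eno1 had none in the annotation table and were not analysed here. Pdk2 was too dim to test. The remaining 27 genes were tested among 11572 genes with enough signal, meaning that at least 1 array reached the median of all values, an intensity of 64.43 (the low-signal limit below). All of the 27 except Eno2 lay above that limit on every array. Eno2 reached it only in wild type Th2 cells, so counts of differing genes are given over the other 26 unless stated otherwise.

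Naive CD4 T cells (CD44 low, CD62L high) from the spleens of C57BL/6 mice were of 2 genotypes, Ezh2 KO and wild type. Ezh2 is the catalytic subunit of Polycomb repressive complex 2, which methylates lysine 27 of histone H3. The allele, any Cre driver, the age and sex of the mice and the number of mice pooled are not given in the labels used here. All cultures were stimulated for 2 days on plates coated with anti-TCRβ (10 µg/ml), with anti-CD28 at 1 µg/ml and IL-2 at 15 ng/ml. The cells were then kept for 3 days with cytokines but without these antibodies. Unpolarized cultures held blocking antibodies to IL-4 and IFN-γ, Th1 cultures 1 ng/ml IL-12 with antibody to IL-4, and Th2 cultures 10 ng/ml IL-4 with antibody to IFN-γ. Each of the 6 combinations was measured once, on 1 Affymetrix 3' expression array. Genotype differences are therefore log2 differences averaged over cultures, with the SD among them (n = 3 pairs), and were tested in limma with culture as a block. Nothing in the labels ties the cultures to separate mice, so a p-value here reflects only how far these arrays scatter, and the number of arrays limits the precision.

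In glycolysis a cell splits glucose into pyruvate and gains ATP without oxygen. Activated T cells raise this pathway strongly even when oxygen is present and turn much of the pyruvate into lactate, which they export. Pyruvate dehydrogenase instead sends pyruvate into the mitochondria, and its kinases shut that entry. The transcription factor subunit HIF-1α, encoded by Hif1a, is a known activator of many of these genes.

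All arrays had been scaled to the same trimmed mean intensity, 500.003. The T cell gene Cd3d, which encodes a chain of the CD3 complex, read from 20780 to 25700 in Ezh2 KO and from 19780 to 23530 in wild type. Cd4 read from 300.2 to 433 in Ezh2 KO and from 476.9 to 548.1 in wild type (log2 -0.55 ± 0.32, limma adjusted p = 0.0914). Of the 7 CD4 T cell markers tested, 0 rose and 1 fell, the adhesion receptor gene Cd2 (log2 -0.64 ± 0.13, adjusted p = 0.0369), and 4 read higher and 3 lower in Ezh2 KO. The part of this in the results below was not tested. Ezh2 itself read 4971, 4876 and 4946 in Ezh2 KO unpolarized, Th1 and Th2 cultures, against 7002, 6553 and 7677 in wild type, a fall of 1.43-fold (limma adjusted p = 0.0437). With each array centred on its median, Ezh2 was not called (log2 -0.47, limma adjusted p = 0.0925). Which exons the KO lacks is not stated in the labels, so this probe set may lie outside them. The summed intensity of 6 B cell markers ran from 482 to 1195 in Ezh2 KO and from 216 to 396.5 in wild type, with Cd79a and Pax5 below the limit on every array. For 10 myeloid markers the sums ran from 2801 to 4470 in Ezh2 KO and from 2444 to 2956 in wild type, and Lyz2, Itgam, Itgax, Cd14, S100a8 and S100a9 were below the limit on every array. Of the 4 myeloid markers tested, 0 rose and 0 fell, and 3 read higher and 1 lower in Ezh2 KO. The summed intensity of 2 CD8 T cell markers ran from 373.7 to 539.8 in Ezh2 KO and from 389.3 to 414.4 in wild type. Of these 2, 0 rose and 0 fell. The 4 NK cell markers and 3 erythroid markers with a probe set were under the limit throughout. The part of these other cells was not tested either. In such bulk RNA, fewer cells of a type and less RNA per cell cannot be told apart.

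Set between the genotypes, Pfkm, Pfkfb3, Aldoc, Eno3, Pdk1, Pdk3 and Pdha1 fell in Ezh2 KO and Hif1a rose, while the glucose transporters and the lactate dehydrogenases did not pass the test. Of 26 genes, 7 fell, 1 rose and 18 did not pass an adjusted p of 0.05 (limma, Benjamini-Hochberg over 11572 genes). Over all tested genes 7.98% fell and 8.35% rose. The median log2 difference was -0.23 for the 26 genes and -0.07 for all tested genes. With Eno2, which also passed as lower but was tested only because wild type Th2 cells reached the low-signal limit, 8 of 27 genes fell. All 3 Ezh2 KO arrays lay below all 3 wild type arrays for 15 of the 26 genes and above them for 1, compared with 27.5% and 20.1% of all tested genes. Ezh2 KO was lower in each of the 3 cultures for 17 genes and higher in each for 1, compared with 36.3% and 26.2% of all tested genes. The calls were not robust to every setting. With any 1 culture left out, or without the filter on dim genes, 0 genes of the whole array passed, and with each array centred on its median 5 of the 27 pathway genes fell in place of 8.

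**Figure D1:**
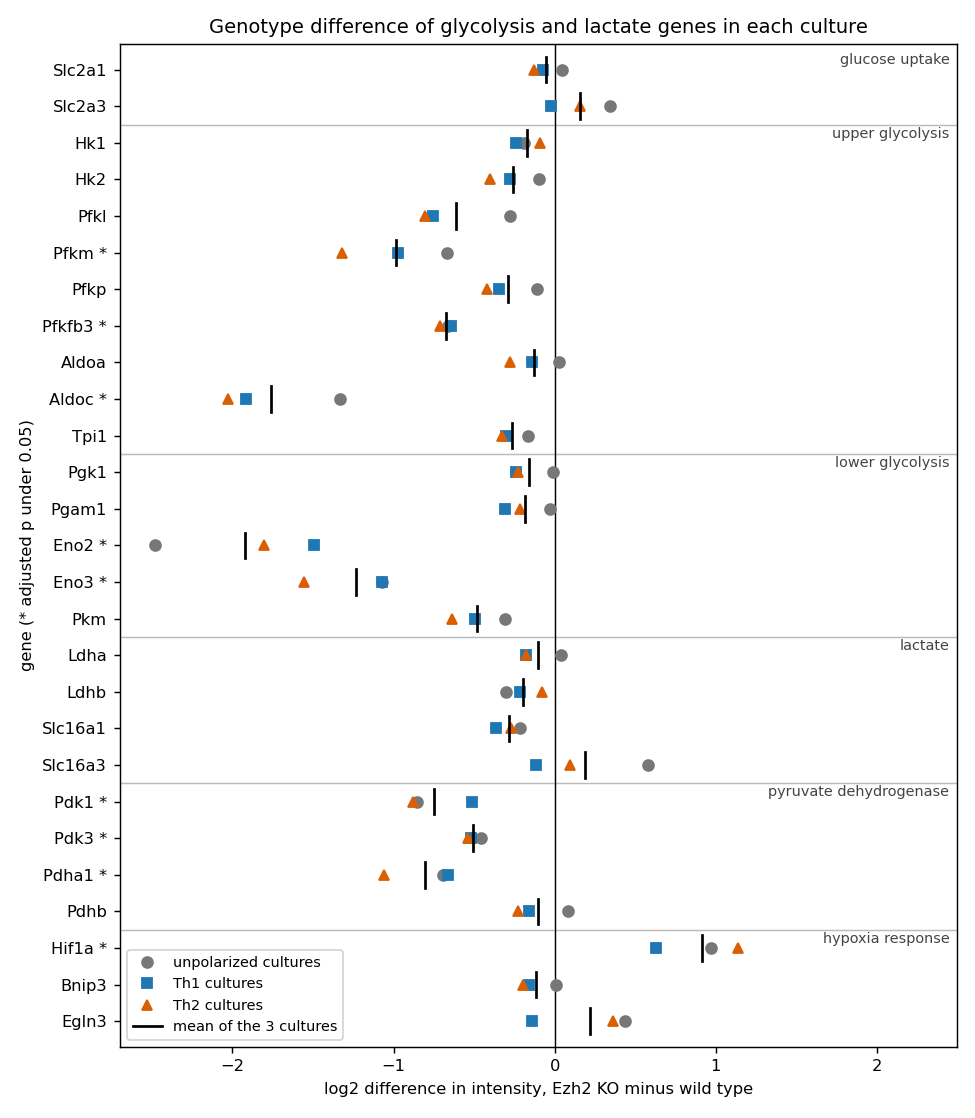
Log2 difference in intensity, Ezh2 KO minus wild type (horizontal axis), for the 27 tested genes in pathway order, with 1 symbol per culture, the mean of the 3 cultures as a bar and an asterisk where the limma adjusted p was under 0.05. Aldoc, Eno2 and Eno3 lie farthest to the left, Hif1a is the 1 gene called to the right, and for most of the other genes the unpolarized symbol lies right of the Th1 and Th2 symbols.

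Glucose enters T cells mainly through the transporters encoded by Slc2a1 (GLUT1) and Slc2a3 (GLUT3), and neither gene passed. Slc2a1 read 8226, 8937 and 8599 in Ezh2 KO, again in the order unpolarized, Th1 and Th2, against 7968, 9401 and 9394 in wild type. The log2 difference was -0.05 ± 0.09, within the spread among cultures (adjusted p = 0.687), and the genotypes overlapped. A nearly as bright Slc2a1 probe set gave 0.522, -0.025 and 0.078 (mean 0.192), and a dimmer one 0.168, -0.168 and -0.25. Slc2a3 read 20410, 17090 and 21350 in Ezh2 KO and 16080, 17340 and 19140 in wild type (log2 0.16 ± 0.18, adjusted p = 0.347). Its Ezh2 KO arrays were higher in unpolarized and Th2 cultures and slightly lower in Th1 cultures, and the genotypes overlapped. Another bright Slc2a3 probe set was higher in each Ezh2 KO culture (0.645, 0.038 and 0.358), without overlap. Its dimmer probe sets differed in sign between cultures.

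The hexokinases, which trap glucose in the cell as glucose 6-phosphate, were also below the threshold. Hk2, the inducible form, read 4648, 4767 and 3994 in Ezh2 KO and 4982, 5780 and 5273 in wild type, lower in each Ezh2 KO culture and without overlap (log2 -0.26 ± 0.15, adjusted p = 0.153). Hk1 gave -0.17 ± 0.08 (adjusted p = 0.215). The log2 change of Hk2 minus that of Hk1 was -0.09 ± 0.20 (exact sign-flip permutation p = 0.75).

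Phosphofructokinase, the committed step of glycolysis, has muscle, liver and platelet subunits, encoded by Pfkm, Pfkl and Pfkp. Pfkm read 508.9, 381.1 and 365 in Ezh2 KO and 807.8, 748.6 and 910.5 in wild type. It fell 1.98-fold (log2 -0.99 ± 0.33, limma adjusted p = 0.0405), with every Ezh2 KO array below every wild type array. Pfkl read 1042, 832.6 and 713.6 in Ezh2 KO and 1261, 1402 and 1247 in wild type, again without overlap, and was short of the threshold (log2 -0.61 ± 0.29, adjusted p = 0.0712). Pfkp, whose probe set was bright, gave -0.29 ± 0.16 (adjusted p = 0.132). The log2 change of Pfkm was lower than that of Pfkp in each culture, by -0.69 ± 0.18. An exact sign-flip permutation test over 3 cultures cannot give a two-sided p below 0.25, which is the value it gave here.

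Pfkfb3 makes fructose 2,6-bisphosphate, the strongest activator of phosphofructokinase. It read 550.5, 578.5 and 463.3 in Ezh2 KO and 871.9, 903.1 and 758.6 in wild type. The fall of 1.59-fold was nearly the same in each culture (log2 -0.67 ± 0.04, adjusted p = 0.0287). A dimmer probe set of Pfkfb3, with 3 arrays under the low-signal limit, differed in sign between cultures (0.16, -0.79 and -0.80), and the call was lost when both were averaged (adjusted p = 0.0745).

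Aldolase splits fructose 1,6-bisphosphate, and its A and C forms went apart. Aldoc, the form best known from brain, read 3590, 2479 and 2517 in Ezh2 KO unpolarized, Th1 and Th2 cells and 9029, 9364 and 10270 in wild type. All Ezh2 KO values were far below all wild type values, a fall of 3.38-fold (log2 -1.76 ± 0.38, adjusted p = 0.026), and Aldoc ranked 84th from the lowest difference among 11572 genes. The other Aldoc probe set read 264.2, 287.3 and 201.8 in Ezh2 KO and 732.5, 512.7 and 1011 in wild type, 2.92-fold lower on average. Aldoa, the ubiquitous form, read 30160, 26240 and 29100 in Ezh2 KO and 29640, 28930 and 35200 in wild type (log2 -0.13 ± 0.15, adjusted p = 0.399). The log2 change of Aldoc minus that of Aldoa was -1.63 ± 0.24 and below 0 in each culture, and the exact sign-flip permutation p was again 0.25, the smallest possible. Tpi1, which interconverts the trioses that aldolase releases, gave -0.26 ± 0.09 (adjusted p = 0.115), and its 3 probe sets were each lower in all Ezh2 KO cultures.

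In the payoff phase, the enzymes that oxidize and rearrange the trioses differed little. The brightest Gapdh control probe set read 42040, 34920 and 40280 in Ezh2 KO and 40090, 39000 and 45500 in wild type, a log2 difference of -0.09 ± 0.14. Its 3' to 5' signal ratio, a sign of RNA integrity, ran from 0.787 to 0.832 in Ezh2 KO and from 0.813 to 0.834 in wild type. Phosphoglycerate kinase (Pgk1) gave -0.16 ± 0.13 and phosphoglycerate mutase (Pgam1) -0.18 ± 0.14, both with Ezh2 KO values under all wild type values and adjusted p of 0.294 and 0.253. Pkm, which encodes the muscle pyruvate kinase isoforms of the last step, read 9828, 7713 and 8397 in Ezh2 KO and 12150, 10850 and 13070 in wild type. It was lower in each culture without overlap and just missed the threshold (log2 -0.48 ± 0.17, adjusted p = 0.0612). It passed with quantile normalization (adjusted p = 0.0479), with a higher floor, with a stricter filter on dim genes and with a trended variance.

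The enolases measured here were the muscle form Eno3 and the neuronal form Eno2. Eno3 read 261.6, 324.1 and 227.4 in Ezh2 KO and 549.8, 680.1 and 668 in wild type. It fell 2.35-fold (log2 -1.23 ± 0.28, adjusted p = 0.0287), with no overlap of the genotypes. Eno2 read 7.208, 19.86 and 22.32 in Ezh2 KO and 63.1, 55.93 and 77.86 in wild type. As 5 of these 6 readings lay under the low-signal limit, its adjusted p of 0.0295 carries no weight and the size of its difference is not firm. With the floor on low values raised to the 40th percentile its log2 difference was -0.80, and -1.93 with the floor used here.

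**Figure D2:**
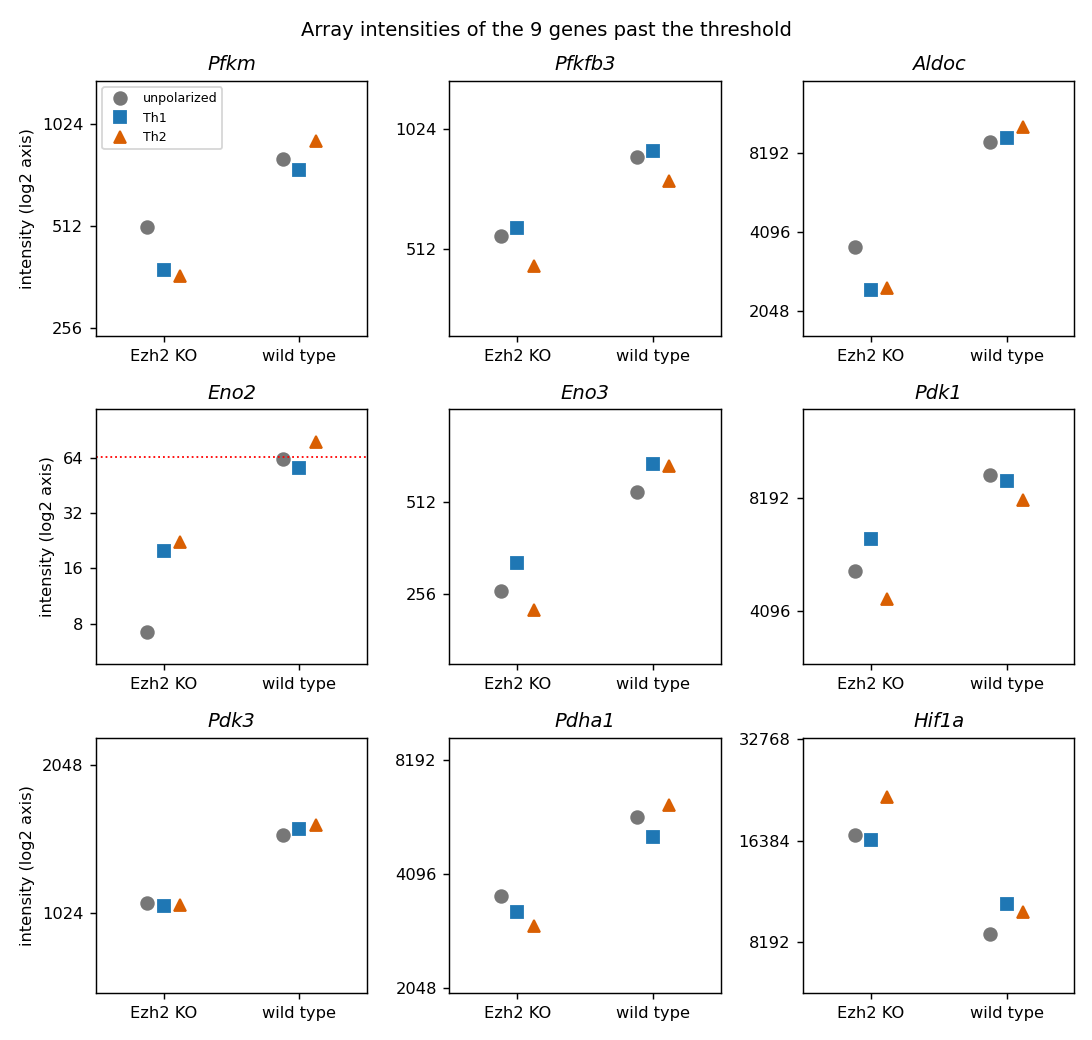
Array intensities (vertical axis, log2 scale, different range in each panel) of the 9 genes past the threshold, Ezh2 KO left and wild type right, with 1 symbol per culture. In every panel the genotypes do not overlap, Hif1a alone is higher in Ezh2 KO, and 5 of 6 Eno2 symbols lie under the dotted line that marks the low-signal limit of 64.43.

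Lactate dehydrogenase turns pyruvate into lactate and back, and no gene of lactate production or export passed. Ldha, the form of activated T cells, read 36990, 31430 and 35580 in Ezh2 KO and 36060, 35550 and 40160 in wild type, with overlap (log2 -0.11 ± 0.12, adjusted p = 0.455). Ldhb, the heart form, read 585.4, 755.3 and 661.6 in Ezh2 KO and 720.9, 875.6 and 698.8 in wild type (log2 -0.20 ± 0.11, adjusted p = 0.199). On this probe set Ldhb was lower in each Ezh2 KO culture, although the groups overlapped across cultures. Its other probe sets were lower in Th1 and Th2 cultures, but gave 0.167, 0.185 and -0.083 in unpolarized cultures. Slc16a1 encodes the monocarboxylate transporter MCT1. It read 5480, 6207 and 5079 in Ezh2 KO against 6375, 8001 and 6140 in wild type, lower in each culture (log2 -0.29 ± 0.08, adjusted p = 0.0959). Slc16a3, which encodes the lactate exporter MCT4, was dim, at 212, 182.2 and 184.2 in Ezh2 KO and 141.9, 197.1 and 172.3 in wild type (log2 0.19 ± 0.36, adjusted p = 0.467).

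Of the genes that govern the entry of pyruvate into the mitochondria, 3 fell, the kinase genes Pdk1 and Pdk3 and the subunit gene Pdha1. Pdk1, a kinase that switches pyruvate dehydrogenase off and a known HIF-1 target, read 5230, 6392 and 4419 in Ezh2 KO and 9446, 9100 and 8128 in wild type, without overlap. It fell 1.68-fold (log2 -0.75 ± 0.21, adjusted p = 0.0392), and all 4 of its probe sets were lower in all 3 cultures, by 1.68-fold to 2.02-fold on average. Pdk3, another kinase of the family, read 1075, 1057 and 1065 in Ezh2 KO and 1474, 1518 and 1546 in wild type. Its fall of 1.42-fold was small, but both groups were tight (log2 -0.51 ± 0.04, adjusted p = 0.039). Pdha1, which encodes the catalytic alpha subunit that these kinases phosphorylate, read 3583, 3248 and 2990 in Ezh2 KO and 5781, 5133 and 6230 in wild type. It fell 1.74-fold (log2 -0.80 ± 0.22, adjusted p = 0.0374), and its other probe set gave 1.74-fold as well. The beta subunit gene Pdhb gave -0.10 ± 0.16 on its bright probe set (adjusted p = 0.508). Against that probe set, the log2 change of Pdha1 was lower in each culture, by -0.70 ± 0.18 (exact sign-flip permutation p = 0.25, the smallest possible). A much dimmer Pdhb probe set, with 1 array under the low-signal limit, gave -0.47, -0.76 and -0.60 (mean -0.61, or 1.52-fold). The contrast of the subunits thus rests on the bright Pdhb probe set, and Pdha1 was not tested against the dimmer one. With each array centred on its median, Pfkm (adjusted p = 0.0544), Pdha1 (0.0538) and Pdk3 (0.0958) lost their calls.

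Hif1a was the 1 gene of the pathway that rose. It read 16990, 16400 and 22010 in Ezh2 KO and 8675, 10600 and 10020 in wild type, 1.88-fold higher (log2 0.91 ± 0.26, adjusted p = 0.0365), with every Ezh2 KO value above every wild type value. Of its 4 probe sets, 3 were higher in all 3 cultures, with mean log2 differences of 0.91, 0.91 and 1.07. The dimmest differed in sign between cultures, and with all 4 averaged the adjusted p was 0.0503. These are transcript levels, whereas HIF-1α is known to be controlled largely through the stability of the protein. Egln3, which encodes an oxygen-sensing prolyl hydroxylase that marks HIF-1α for destruction and is itself a HIF target, read 9550, 9343 and 11310 in Ezh2 KO and 7046, 10280 and 8809 in wild type (log2 0.22 ± 0.31, adjusted p = 0.358). Bnip3, a mitophagy gene and HIF target, gave -0.11 ± 0.11 (adjusted p = 0.409).

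Because Hif1a rose while most of the pathway read lower, the promoters of Aldoc and Pdk1, which fell, and of Ldha, which was bright and not called, are shown for the letters of the HIF core. That core is ACGTG or GCGTG, searched on both strands in the 250 bases before the first start listed for each gene in RefSeq (GRCm38.p6), written from 5′ to 3′ along the gene with matches in capitals. The E-box CACGTG holds ACGTG on both strands and so counts as 2 matches. The windows are chr11:78322823-78323072 (plus strand) for Aldoc, chr2:71872974-71873223 (plus strand) for Pdk1 and chr7:46845554-46845803 (plus strand) for Ldha.
Aldoc promoter: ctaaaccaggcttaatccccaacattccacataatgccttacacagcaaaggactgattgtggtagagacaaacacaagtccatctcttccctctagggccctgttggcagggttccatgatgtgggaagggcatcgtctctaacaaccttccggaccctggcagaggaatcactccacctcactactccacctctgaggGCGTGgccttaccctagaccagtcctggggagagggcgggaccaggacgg
Pdk1 promoter: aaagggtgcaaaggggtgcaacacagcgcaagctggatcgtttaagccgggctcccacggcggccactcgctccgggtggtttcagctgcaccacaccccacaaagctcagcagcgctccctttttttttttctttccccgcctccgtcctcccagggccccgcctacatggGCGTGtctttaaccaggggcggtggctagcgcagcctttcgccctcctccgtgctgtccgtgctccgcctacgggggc
Ldha promoter: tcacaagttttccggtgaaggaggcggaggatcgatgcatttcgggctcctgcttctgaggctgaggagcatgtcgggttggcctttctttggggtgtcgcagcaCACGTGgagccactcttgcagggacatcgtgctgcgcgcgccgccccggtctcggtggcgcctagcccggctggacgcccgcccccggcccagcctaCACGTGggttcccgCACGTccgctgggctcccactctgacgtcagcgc
Aldoc and Pdk1 held 1 match each and Ldha held 5, from 2 E-boxes and 1 single core. These 3 windows do not stand for their groups. Genes that fell held from 0 (Eno2) to 4 matches (Pdk3). Tested genes not called held from 0 (Aldoa, Hk1, Pkm and Tpi1) to 5 (Ldha and Bnip3). Of 30 genes of the pathway with a promoter in the table, 24 held at least 1 match, or 80%, compared with 56.9% of the tested genes that had a promoter and 38.6% of all genes in the table. Among the 8 genes that fell, Eno2 included, 7 held a match, as did Hif1a and 13 of 17 tested genes that were not called. CpG dinucleotides, which the core contains, had a median of 14.5 per window in the pathway genes and 16 in the tested genes. The pathway list includes known HIF targets, so its share of matches is no independent result. Further starts, where listed, were not searched. Aldoc, Pdk1 and Ldha have 2 starts each in all, Aldoa 3 and Pfkm 4. A match is a match of letters and not a binding site.

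The genes that were not called included the brightest. Pgk1, Ldha, Aldoa, Tpi1 and Slc2a3 had mean levels above an intensity of 16384, a level reached by 169 of the tested genes. In that range the genotype differences of all genes had an SD of 0.23 on the log2 scale and 1.18% fell, compared with an SD of 0.66 and 9.94% between intensities of 256 and 1024, where Eno3, Ldhb, Pfkfb3 and Pfkm lie. Array signals are known to flatten toward the top of the range, and the part of this in the small differences of the bright genes was not tested. Between 4096 and 16384, where 5.47% of 988 genes fell and 7.19% rose, 3 of 13 pathway genes fell (Aldoc, Pdk1 and Pdha1) and 1 rose (Hif1a). The probe sets used for Aldoa and Tpi1 carry the suffix x, which marks probes that can also match other transcripts.

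**Figure D3:**
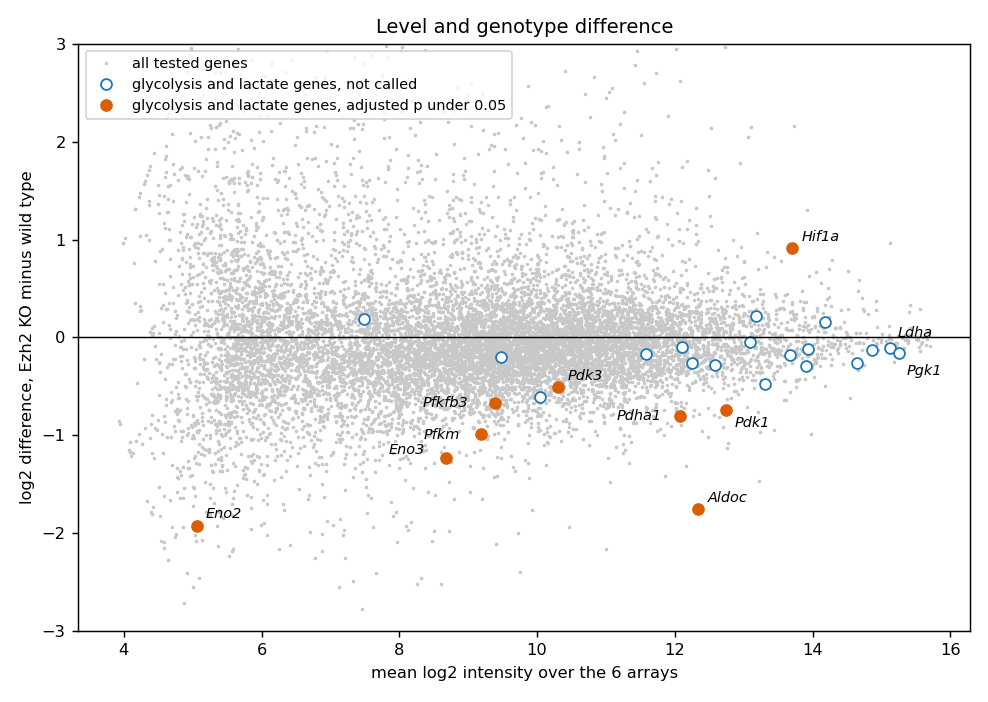
Mean log2 intensity over the 6 arrays (horizontal axis) against the log2 difference, Ezh2 KO minus wild type (vertical axis), for all 11572 tested genes in grey and the 27 glycolysis and lactate genes as circles, filled where the adjusted p was under 0.05. The 95 genes beyond a log2 difference of 3 either way are outside the plot, the cloud narrows at the bright end where Ldha and Pgk1 lie, and Aldoc lies below nearly all genes of its level.

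The differences were also counted by culture, without a test. In unpolarized cultures 6 of the 26 genes were lower by 1.5-fold or more and 1 was higher, set against 14.6% and 12.9% of all tested genes. In Th1 cultures the counts were 6 and 1, against 12.7% and 13.3%, and in Th2 cultures 8 and 1, against 15.6% and 16.3%. The median log2 difference was -0.14 in unpolarized, -0.29 in Th1 and -0.27 in Th2 cultures, while that of all tested genes was -0.06 in each. Ezh2 KO was the lower genotype for 17 of 26 genes in unpolarized, 25 in Th1 and 22 in Th2 cultures. Of all 11572 tested genes, it was the lower genotype for 6431, 6488 and 6391 in the same order. On the probe sets used, Slc2a1, Aldoa, Ldha, Pdhb and Bnip3 were slightly higher in Ezh2 KO in unpolarized cultures and lower in Th1 and Th2 cultures. The farthest was Aldoa in Th2 cultures, at -0.27 on the log2 scale. With 1 array per genotype in each culture, whether the cultures differ in this way was not tested.

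Past 1.5-fold in all 3 cultures were 5 lower genes (Pfkm, Pfkfb3, Aldoc, Eno3 and Pdha1) and 1 higher gene (Hif1a), compared with 4.31% and 7.16% of all tested genes. Pdk1 fell short of that size in Th1 cultures, at -0.51, and Pfkl in unpolarized cultures, at -0.28. The widest spreads among cultures were those of Aldoc, Slc16a3 and Pfkm, with SDs of 0.38, 0.36 and 0.33, and the narrowest those of Pfkfb3 and Pdk3, both 0.04.

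No difference between culture conditions passed the test for these genes, or for any gene on the array. Effector T cells are known to rely on glycolysis, and the design allows each polarized culture to be set against the unpolarized one with genotype as a block. Of the 27 genes 0 passed for Th1 against unpolarized, 0 for Th2 against unpolarized and 0 for Th1 against Th2 (limma, background 0% in each). Over all 11572 genes 0 passed in each comparison as well, so the 0 calls say nothing about the pathway in particular, with 632, 775 and 878 genes at an unadjusted p under 0.05, of which 1, 0 and 2 belonged to the pathway. A trended variance called 0, 5 and 16 genes of the array and still 0 of the pathway. The comparisons against unpolarized share those arrays. Among 7 signature genes, the Th1 genes Tbx21, Il12rb2 and Ifng were highest in the Th1 cells of each genotype, although Il12rb2 and Ifng were under the low-signal limit in all wild type cultures. Tbx21 read 642.8 in Ezh2 KO Th1 cells and 530.4 in wild type Th1 cells. The Th2 genes Il4, Il5 and Gata3 were highest in Th2 cells of each genotype, and Il13 in those of the Ezh2 KO, while Il5 and Il13 were under the limit in all wild type cultures. Il4 read 601.4 in Ezh2 KO Th2 cells and 227.5 in wild type Th2 cells. Ifng was above the limit in every Ezh2 KO culture, at 266.3 in unpolarized, 766.8 in Th1 and 608.3 in Th2 cells.

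Fitted differences of the 26 genes other than Eno2 stayed between -0.26 and 0.32 on the log2 scale for Th1 against unpolarized and between -0.28 and 0.29 for Th2 against unpolarized. Ldhb had the highest Th1 value, 0.32 (adjusted p = 0.857), higher than unpolarized by 0.37 in Ezh2 KO and by 0.28 in wild type. Pdk1 had the highest value for Th1 against Th2, 0.35 (adjusted p = 0.674), made of 0.53 in Ezh2 KO and 0.16 in wild type. Within a genotype, 0 of these 26 genes reached 1.5-fold in any comparison of cultures. Of all tested genes, Th1 cells were that far above unpolarized cells for 7.08% and below for 4.93% in Ezh2 KO, and for 6.86% and 7.21% in wild type. Th2 cells were above unpolarized cells for 8.9% and below for 5.89% in Ezh2 KO, and for 5.77% and 7.86% in wild type. Th1 cells were above Th2 cells for 6.56% and below for 7.5% in Ezh2 KO, and for 7.99% and 6.26% in wild type. Eno2 alone passed that size, in Ezh2 KO, at 0.81 in Th1 and 0.98 in Th2 cells over an unpolarized reading at the floor.

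The direction of these small shifts differed between the genotypes. Th2 values were above unpolarized ones for 6 of the 26 genes in Ezh2 KO and for 20 in wild type, with medians of -0.09 and 0.16. Of all 11572 tested genes, 5526 were above in Ezh2 KO and 5850 in wild type, with medians of -0.013 and 0.003. Th1 values were above unpolarized ones for 7 of the 26 genes in Ezh2 KO and for 19 in wild type, with medians of -0.10 and 0.10. Of all tested genes, 5280 were above in Ezh2 KO and 5711 in wild type, with medians of -0.024 and -0.002. Aldoc went by -0.53 in Th1 and -0.51 in Th2 cells of the Ezh2 KO, and by 0.05 and 0.18 in wild type. Egln3 differed by -0.03 in Th1 and 0.24 in Th2 cells of the Ezh2 KO, and by 0.54 and 0.32 in wild type. Within a genotype both shifts share 1 unpolarized array, so a deviation of that array moves all of them together, and the difference between genotypes was not tested.

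**Figure D4:**
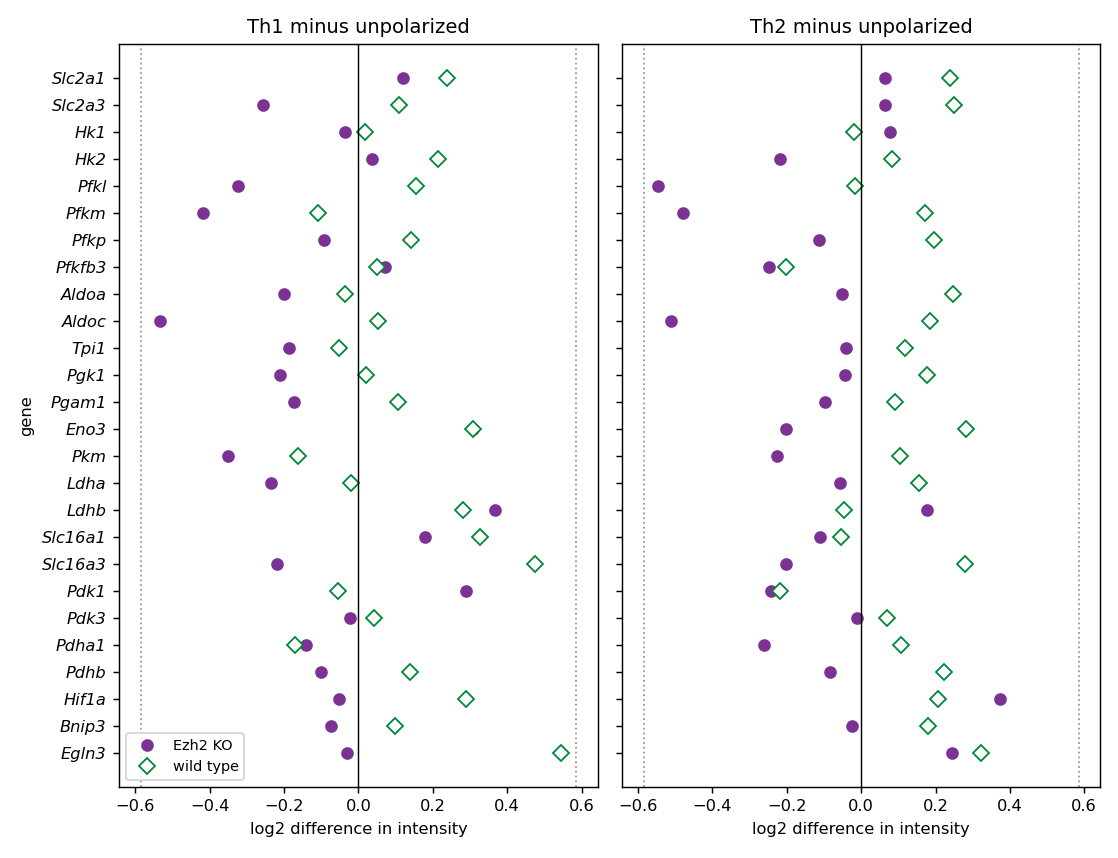
Log2 difference of Th1 (left panel) and Th2 (right panel) from unpolarized cultures for 26 genes, with filled circles for Ezh2 KO, open diamonds for wild type and dotted lines at 1.5-fold. All symbols lie inside the dotted lines, with most Ezh2 KO symbols left of 0 and most wild type symbols right of it.

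Genes near the pathway but outside the 31 were counted by list, to be read against the 8.35% of all tested genes that rose, the 7.98% that fell and their median of -0.07. Of 18 tested genes of a list of other glucose uptake and glycolysis genes, 0 rose and 1 fell, with a median log2 difference of -0.26. The gene that fell was Pfkfb4, which like Pfkfb3 makes and breaks fructose 2,6-bisphosphate. It read 197.1, 147.3 and 239.6 in Ezh2 KO and 393.7, 325.2 and 396.2 in wild type (1.94-fold lower, log2 -0.96 ± 0.21, adjusted p = 0.0304). Of 9 tested pentose phosphate genes 0 rose and 0 fell, with 1 at an unadjusted p under 0.05.

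Of 16 tested genes of a list of other pyruvate and lactate genes, 3 rose and 2 fell, with a median of -0.31. Emb, which encodes embigin, a partner of monocarboxylate transporters at the membrane, rose 1.72-fold (log2 0.78 ± 0.21, adjusted p = 0.0373), but not with its probe sets averaged (adjusted p = 0.209). Pdp1, a phosphatase that reverses the action of the pyruvate dehydrogenase kinases, rose 1.51-fold, to 513.7, 509.8 and 472.5 in Ezh2 KO against 347, 372.8 and 276.9 in wild type (adjusted p = 0.044). Me1, which encodes cytosolic malic enzyme, rose 2.67-fold (adjusted p = 0.0445), with overlap between cultures and 1 wild type reading under the low-signal limit. Mpc1, a subunit of the mitochondrial pyruvate carrier, fell 1.40-fold (log2 -0.49 ± 0.12, adjusted p = 0.049), and the alanine transaminase gene Gpt fell 1.60-fold (adjusted p = 0.0278). With median centring Pdp1 (adjusted p = 0.0567) and Mpc1 (0.0984) were not called. With probe sets averaged Gpt (limma adjusted p = 0.0523) and Mpc1 (0.0534) were not called.

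Of 32 tested genes of a list of other hypoxia response genes, 4 rose and 4 fell, with a median of -0.20. Epas1, which encodes HIF-2α, rose 5.29-fold to 823.4, 858.4 and 4603 in Ezh2 KO, against 273.6, 194.4 and 413.9 in wild type (log2 2.40 ± 0.97, adjusted p = 0.0446), and its Th2 value stood apart in Ezh2 KO. The heme oxygenase gene Hmox1 rose to between 150.4 and 183.5 in Ezh2 KO, while all 3 wild type values were too dim to give more than a bound. The repressor Bhlhe40 rose 2.32-fold and the nuclear receptor Rora 2.12-fold, but Rora not with its probe sets averaged (limma adjusted p = 0.0656). Stc2, which encodes a secreted glycoprotein, fell 2.25-fold and the transferrin receptor gene Tfrc 1.56-fold. The other genes that fell were Ankrd37 (log2 -0.59) and Egln1 (log2 -0.49). With median centring Tfrc (limma adjusted p = 0.0816), Ankrd37 (0.105) and Egln1 (0.121) were not called. Among 17 tested upstream regulators, 1 rose and 1 fell. Mycn, a Myc family transcription factor, rose 3.80-fold (log2 1.93 ± 0.27, adjusted p = 0.02), but not with its probe sets averaged (adjusted p = 0.117). Tsc2, a brake on mTORC1, fell 2.03-fold (adjusted p = 0.0279).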

How the data were processed

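Total RNA of 6 cultures was hybridized to 1 array each. The authors deposited linear intensities, 1 per probe set, made with Affymetrix Expression Console (no version), per the submitters' processing notes. How probes were summarized was not given there. Trimming 2% at each end gave the same mean on all arrays, while their medians ran from 61.3 to 69.1, so the arrays were scaled and not quantile normalized.

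Of 45101 probe sets, 64 controls were left out of the tests, 34945 had 1 gene symbol, 932 several and 9160 none. Before log2, values under the 20th percentile (intensity 11.33) were set to it. Each gene was represented by its brightest probe set on average. Genes reaching 64.43 on any array were tested in limma 3.58.1 (R 4.3.3), with an additive model of culture and genotype, 2 residual degrees of freedom, eBayes and Benjamini-Hochberg adjustment at 0.05. The model was tested on simulated data. At the floor a log2 difference is too small, and for dim genes background limits what can be seen.

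Array values are given in full for genes past the threshold, for those past 1.5-fold one way in all cultures and for Ldha, Ldhb, Hk2, Slc2a1, Slc2a3, Slc16a3, Pdk1, Hif1a, Gapdh and Pkm. Those of Pfkl, Aldoa, Slc16a1 and Egln3 were added after their values were seen. Genes outside the 31 are named where they passed, at most 6 per list by size, with Ankrd37 and Egln1 added later. The members and lists were chosen with earlier results of these data known. Alternatives were median centring, quantile normalization, other filters and floors, averaged probe sets, a trended variance and leaving out each culture. No set test was made, and RefSeq (GRCm38.p6) served for symbols and promoters.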

Additional observations from a re-analysis of the deposited data

How the results depend on the processing

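With 1 culture left out at a time, the genes called between the genotypes ranged from 0 to 0 in each direction, over the array and among the 27 pathway genes, with 2952 to 3227 genes of the array at an unadjusted p under 0.05. The 9 called genes kept their sign under each alternative in which they were tested, and Eno2 was not tested with the filter at the 60th percentile. Without the filter on dim genes 0 genes were higher and 0 lower over the array (4711 at an unadjusted p under 0.05), and 0 and 0 in the pathway (13 at an unadjusted p under 0.05). Median centring gave 859 higher and 411 lower genes over the array, against 966 and 924, and 5 lower pathway genes. A filter at the 60th percentile gave 1879 lower genes. A trended variance gave 1777 higher and 2206 lower, with 14 lower pathway genes, the added ones being Hk2, Pfkl, Pfkp, Tpi1, Pkm and Slc16a1. With probe sets averaged, 0 pathway genes were higher. The trended variance also called 5 genes higher in Th2 than unpolarized, and 3 higher and 13 lower in Th1 than Th2. Why these settings moved the counts was not tested, beyond the numbers of genes and arrays that they leave.

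The counts past 1.5-fold within a culture or genotype, over all 27 pathway genes, moved by few genes. In unpolarized cultures median centring gave 3 higher and 4 lower pathway genes and quantile normalization 2 higher, in place of 1 and 7. Median centring gave 1 gene lower in Th1 and 1 lower in Th2 than unpolarized in Ezh2 KO, and 1 higher in Th1 in wild type. A floor at the 40th percentile gave 0 higher for both in Ezh2 KO. Averaged probe sets gave 1 lower in Th1 and 1 lower in Th2 in Ezh2 KO, 1 higher in Th1 and 1 lower in Th2 in wild type, and 1 higher in Th1 than Th2 in wild type. The main counts were 0, except for 1 higher in each Ezh2 KO comparison with unpolarized, which was Eno2. The median of the pathway genes between the genotypes stayed between -0.33 and -0.21 under all alternatives. The labels give no replicate numbers, and the arrays were paired by culture, which was a block throughout.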
